A study of Mus musculus with 24 samples.

Results

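The genes described here encode chromatin regulators and high mobility group proteins. They were taken by a rule on symbols, as genes whose symbol begins with Hdac, Smarc, Kdm, Jmjd, Jarid, Dnmt, Ezh, Cbx, Chd, Brd, Hmga, Hmgb, Hmgn, Sin3, Sirt, H2af, H3f3, Hist, Rbbp, Mbd, Ing or Suz12; the rule holds no measured value, though the group was chosen with earlier results of these data known. Of 83 such genes on the array, 66 had values on at least 2 arrays of each of the 8 days and were tested, among 5660 named genes tested in all; the 66 had 134 array features. The 17 others had too few values and were not tested: Cbx7, Chd6, Chd7, Dnmt3l, Ezhip, Hdac4, Kdm2b, Kdm3b, Kdm4a, Kdm5a, Kdm6a, Rbbp5, Sirt1, Sirt5, Sirt6, Smarcc2 and Suz12. No sirtuin was therefore tested. None of the 83 had a symbol starting Hist or H2af. H3f3b was the one histone gene among the 66.

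The cells were HBC-3, a mouse hepatoblast line, that is, liver progenitor cells able to form hepatocytes and bile duct cells. They were kept for 1 to 7 days on Matrigel, an extract of basement membrane, and day 0 was the undifferentiated state. Each day had 3 two-colour arrays, named A, B and C, 24 in all. Per the labels, cells grown for the arrays had been freed of their STON+ feeder cells by trypsin and replating on plastic. Undifferentiated HBC-3 RNA labelled with Cy3 was the reference on every array, and amplified RNA from the sample was labelled with Cy5. On day 0 both channels therefore held undifferentiated cells. The line is a single one, no group here was kept off Matrigel for the same time, and time in culture and time on the gel cannot be told apart. Separate cultures per array are not stated in the labels, and p-values then reflect array-to-array spread that may be technical only.

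DNA in the nucleus is wound on histones into nucleosomes, and chromatin regulators decide how open that packing is. Remodelling complexes such as SWI/SNF slide or evict nucleosomes by using ATP, while enzymes add or remove acetyl and methyl groups on histone tails or on DNA, and reader proteins bind those marks. High mobility group proteins are small, abundant proteins that bend DNA or bind nucleosomes, and several of them are abundant in embryonic and dividing cells. In liver progenitors, such factors are known to help keep or release the programmes of hepatocyte and duct fate.

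Values are log2 ratios of sample over reference, each array centred on its own median, so that 1 unit is a 2-fold difference. A change is the mean of a day minus the mean of day 0, with the standard error of the fit, and adjusted p-values are from limma over all 10639 units tested (genes and unnamed features). The sources used here do not give base or direction of the deposited ratio. Log2 of Cy5 over Cy3 is the likely reading, and all directions below rest on it. Because each value is relative to the same gene in the reference, levels of different genes were not compared. The RNA came from whole cultures, so fewer cells of a type and less RNA per cell cannot be told apart.

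The arrays held 12328 to 22149 values each, with SDs of 0.332 to 1.064, and 47 of the 66 members had a value on all 24. Over features, day 0 array A correlated with B at 0.755 but with C at -0.343, and B with C at 0.084. Each call against day 0 was therefore also computed with all day 0 arrays turned in sign, called turned day 0 signs below. A separate setting turned only day 0 array C, the one at odds with A. The C arrays of days 4 to 7 stood apart as well. These, the late C arrays below, correlated with each other at 0.808 to 0.967 and with arrays A and B of their own day at 0.468 to 0.624, and results are given without them where that ended a call. Of 20 hepatoblast markers 4 were tested. As ratios to RNA of the same line, they show change over days and cannot check the labelled cell type. Afp, H19 and Igf2 rose at day 7, and Apob stood at -0.38.

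A few of the 66 genes stood above day 0 from day 1 to day 7, and 44 passed the threshold on no day. Across days 1 to 7, 22 members passed the threshold on at least 1 day, 16 of them higher and 6 lower than day 0, and none did both. Of all units, 41.4 percent passed on at least 1 day, 20.4 percent higher and 21 percent lower, and 0.0564 percent did both. On all 7 days 4 members passed as higher, where 3.22 percent of all units did (2.3 percent were lower on all 7, and 0 members): Smarca2, an ATPase of SWI/SNF; Ezh1, a methyltransferase of Polycomb; Ing4, a reader of methylated histone H3; and Rbbp9, a serine hydrolase. The 6 that fell on some day were Cbx5, Cbx3, Dnmt1, Mbd3, Mbd3l2 and Chd3, whose proteins act in heterochromatin, DNA methylation or the NuRD corepressor complex or are related to its subunits. The heatmap of all members shows these few rows against a pale majority.

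**Figure D1:**
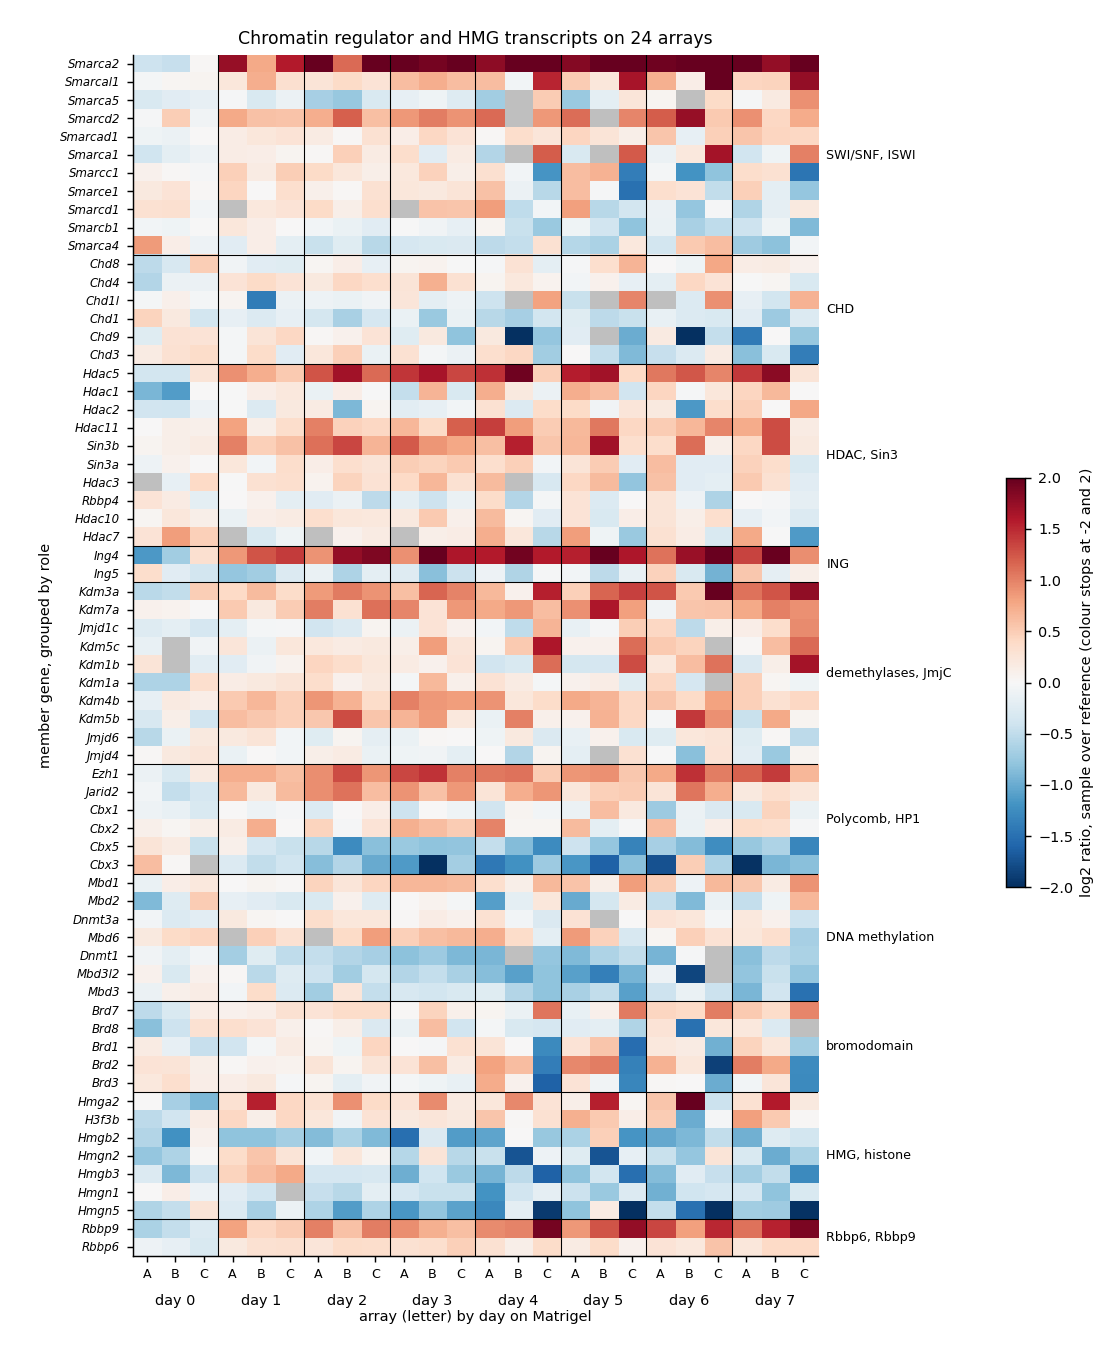
Log2 ratio of sample over reference for the 66 members (rows, grouped by role and sorted by day 7 change) on each of the 24 arrays (columns, by day and letter), with missing values in grey and colour stopping at -2 and 2. Smarca2, Ing4 and Rbbp9 are red on all 21 arrays of days 1 to 7, and Brd2 and Smarcc1 are among the rows that turn blue on the C arrays of days 4 to 7.

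The share of members called lay below the share of all units called on each day, a difference that was not tested. At day 1, 6 of 66 passed (adjusted p under 0.05, limma), all higher, where 10.9 percent of all units passed, 4.99 percent higher and 5.92 percent lower. At an unadjusted p under 0.05, 12 members were higher and 0 lower at day 1. The share of all units at that unadjusted threshold was not computed, so this split has nothing to be set against. At day 2, 11 passed (10 higher, 1 lower), where 17.1 percent of all units did, 9.05 percent higher and 8.04 percent lower. At day 3, 12 passed (10 and 2, beside 24.4 percent of all units; 12.2 higher, 12.3 lower), and at day 4, 11 (7 and 4, beside 22.2 percent; 11.3 higher, 10.9 lower). At day 5, 14 passed (10 and 4, beside 22.9 percent; 11.7 higher, 11.2 lower), and at day 6, 10 (9 and 1, beside 24.8 percent; 12.2 higher, 12.6 lower). At day 7, 15 passed (11 and 4), beside 27.6 percent. At day 7 the share of all units was 14.6 percent higher and 13 percent lower. The median change of the members was 0.18 at day 1 and 0.18 at day 7, beside 0.03 and -0.01 for all units. Of the 66, 43 lay above 0 at day 1 and 41 at day 7, where 52.6 and 49.5 percent of all units did. A moderated F-test over the whole course called 6 members, Smarca2, Ezh1, Ing4, Rbbp9, Jarid2 and Hmgb3, where it called 16.3 percent of all units. With arrays scaled to one spread, day 4 split 8 higher and 1 lower, beside 25.3 percent of all units.

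Other markers moved on the same arrays. Of 46 cell cycle markers 29 were tested, and 3 fell at day 1 and 18 at day 7, with medians of -0.38 and -1.45. Their mean per array lay between -0.03 and 0.11 at day 0, between -0.51 and -0.17 at day 1 and between -1.54 and -1.14 at day 7. Of 20 fibroblast markers, for the feeder cells, 10 were tested, and 3 rose at day 1 and 3 at day 7, with medians of 1.12 and 0.77. Their mean per array ran from -0.76 to 0.08 at day 0, 0.24 to 0.92 at day 1 and 0.36 to 0.76 at day 7. Ratios give no absolute level, so whether a marker was near 0 cannot be read from them. The part of these shifts in the members' changes was not tested.

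The promoters of 7 members are shown here as examples: genes that rose, 1 that rose for a day and 2 that fell. They are the 150 bases before the RefSeq transcription start on mouse build GRCm38.p6, 5′ to 3′ on the strand of the gene, from the first start in the table where it lists more than 1. Smarca2 is at chr19:26605010-26605159 on the plus strand, Ezh1 at chr11:101226464-101226613 (minus), Ing4 at chr6:125039698-125039847 (plus) and Rbbp9 at chr2:144550860-144551009 (minus). Hmgb3 is at chrX:71555767-71555916 (plus), Cbx5 at chr15:103239853-103240002 (minus) and Mbd3 at chr10:80399532-80399681 (minus). Capitals mark matches, on either strand, to CCAAT, whose other strand reads ATTGG, or to TTTGAA, the core of the cell cycle homology region. They also mark the E2F core, searched as TTTCCCG. It was searched too in the form TTTCGCG. The form TTTGCCG was included as well. The last form was TTTGGCG, and no motif contains another.
Smarca2: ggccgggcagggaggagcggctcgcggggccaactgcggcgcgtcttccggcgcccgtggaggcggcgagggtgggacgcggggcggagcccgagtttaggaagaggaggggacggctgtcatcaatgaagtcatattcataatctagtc
Ezh1: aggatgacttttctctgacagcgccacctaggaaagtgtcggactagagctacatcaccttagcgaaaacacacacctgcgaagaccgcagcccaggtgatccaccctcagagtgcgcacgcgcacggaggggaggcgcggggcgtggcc
Ing4: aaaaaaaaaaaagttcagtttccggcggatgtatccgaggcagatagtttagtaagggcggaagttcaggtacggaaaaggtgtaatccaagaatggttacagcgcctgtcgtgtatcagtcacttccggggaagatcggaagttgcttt
Rbbp9: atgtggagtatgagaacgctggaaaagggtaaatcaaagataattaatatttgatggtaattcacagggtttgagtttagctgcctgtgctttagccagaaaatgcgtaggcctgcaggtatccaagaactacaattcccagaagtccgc
Hmgb3: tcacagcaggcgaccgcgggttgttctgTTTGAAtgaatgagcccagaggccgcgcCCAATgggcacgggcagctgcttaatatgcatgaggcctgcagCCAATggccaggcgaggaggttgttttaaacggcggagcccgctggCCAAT
Cbx5: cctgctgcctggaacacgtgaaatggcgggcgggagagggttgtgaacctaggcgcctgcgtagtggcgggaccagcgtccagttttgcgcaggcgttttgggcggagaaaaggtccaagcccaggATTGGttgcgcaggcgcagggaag
Mbd3: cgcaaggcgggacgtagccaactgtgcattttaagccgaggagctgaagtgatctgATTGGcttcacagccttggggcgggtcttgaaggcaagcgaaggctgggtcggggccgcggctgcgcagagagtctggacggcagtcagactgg

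Smarca2, Ezh1, Ing4 and Rbbp9 had no match in these 150 bases. Hmgb3 had TTTGAA at -122 and CCAAT at -94, -51 and -5, Cbx5 had ATTGG at -24, and Mbd3 had it at -94. The examples do not stand for all members called at day 7. Of those not printed, Kdm3a and Hdac5, which rose, had CCAAT or ATTGG before a start, and Brd7, which rose, had E2F cores. Kdm7a, Rbbp6 and Smarcad1, which rose, had no match, and nor did Cbx3, which fell. Over the full RefSeq windows, 250 bases before to 50 after a start, 75 windows of 55 members were listed. Of these, 40.0 percent held CCAAT, 10.7 percent TTTGAA and 10.7 percent an E2F core, beside 37.4, 17.9 and 6.7 percent of all 32851 windows in the table. The members' windows had a median GC content of 64.0 percent and 24 CpG dinucleotides, beside 52.7 percent and 7. Among the 13 windows of 10 members that rose at day 7, 4 held CCAAT, 1 TTTGAA and 1 an E2F core. Among the 5 windows of 3 members that fell at day 7, 2 held CCAAT and 2 an E2F core. A match is a run of letters and not a shown binding site.

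Among the SWI/SNF, ISWI and related remodellers, Smarca2 rose and stayed up while its alternative, Smarca4, did not. Smarca2 (BRM) and Smarca4 (BRG1) are the alternative ATPases of SWI/SNF. Of 11 members of this group, 1 passed at day 1 and 2 at day 7, all higher, with group medians of 0.28 and 0.42. On arrays A, B and C, in that order here and below, Smarca2 stood at -0.41, -0.46 and 0.03 at day 0, at 1.74, 0.76 and 1.58 on day 1 and at 2.10, 1.76 and 3.32 on day 7. Every one of the 21 arrays of days 1 to 7 lay above all day 0 arrays, and arrays of day 1 and day 7 overlapped none of them. Smarca2 rose by 1.64 ± 0.45 at day 1 (adjusted p = 0.0224, limma, n = 3 arrays a day), and the change was 2.04, 2.39, 2.65, 2.86 and 2.70 on days 2 to 6 and 2.67 ± 0.45 at day 7 (adjusted p = 0.000263, limma). Its 3 features moved the same way at day 7, by 2.41 to 3.30. The day 7 call held in all 12 alternative settings and with each of 6 arrays left out, with values of 2.21 to 2.99 in the latter.

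Smarca4 stood at 0.85, 0.14 and -0.10 on the day 0 arrays and at -0.71, -0.82 and -0.05 on the day 7 arrays. The highest day 7 array lay just above the lowest day 0 array. Its change was -0.39 ± 0.31 at day 1 and -0.83 ± 0.31 at day 7 (adjusted p = 0.0533, limma), which missed the threshold. Within each array, Smarca2 minus Smarca4 was -1.26, -0.60 and 0.13 at day 0 and 2.81, 2.58 and 3.37 at day 7, a shift of 3.50 in the means. This pair, like the other pairs of related genes below, was chosen after its values were seen and is given without a test.

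Smarcad1, a remodeller of heterochromatin, rose at day 7 by 0.53 ± 0.19 (adjusted p = 0.0445, limma), but leaving out any of the 6 arrays ended that call. Smarcd2, a SWI/SNF accessory subunit, rose at days 3 to 6, by 0.80, 0.87, 0.92 and 1.03, and stood at 0.56 at day 7 (adjusted p = 0.121, limma). The other SWI/SNF core and accessory subunits, Smarcb1, Smarcc1, Smarcd1 and Smarce1, stood at -0.41, -0.29, -0.38 and -0.33 at day 7 and passed on no day. The ISWI ATPases Smarca1 and Smarca5 stood at 0.42 and 0.59, and Smarcal1, an annealing helicase of replication forks, at 0.86 (adjusted p = 0.156, limma). Actb, which is a subunit of these complexes besides its role in the cytoskeleton, fell by 2.82 ± 0.84 at day 7.

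**Figure D2:**
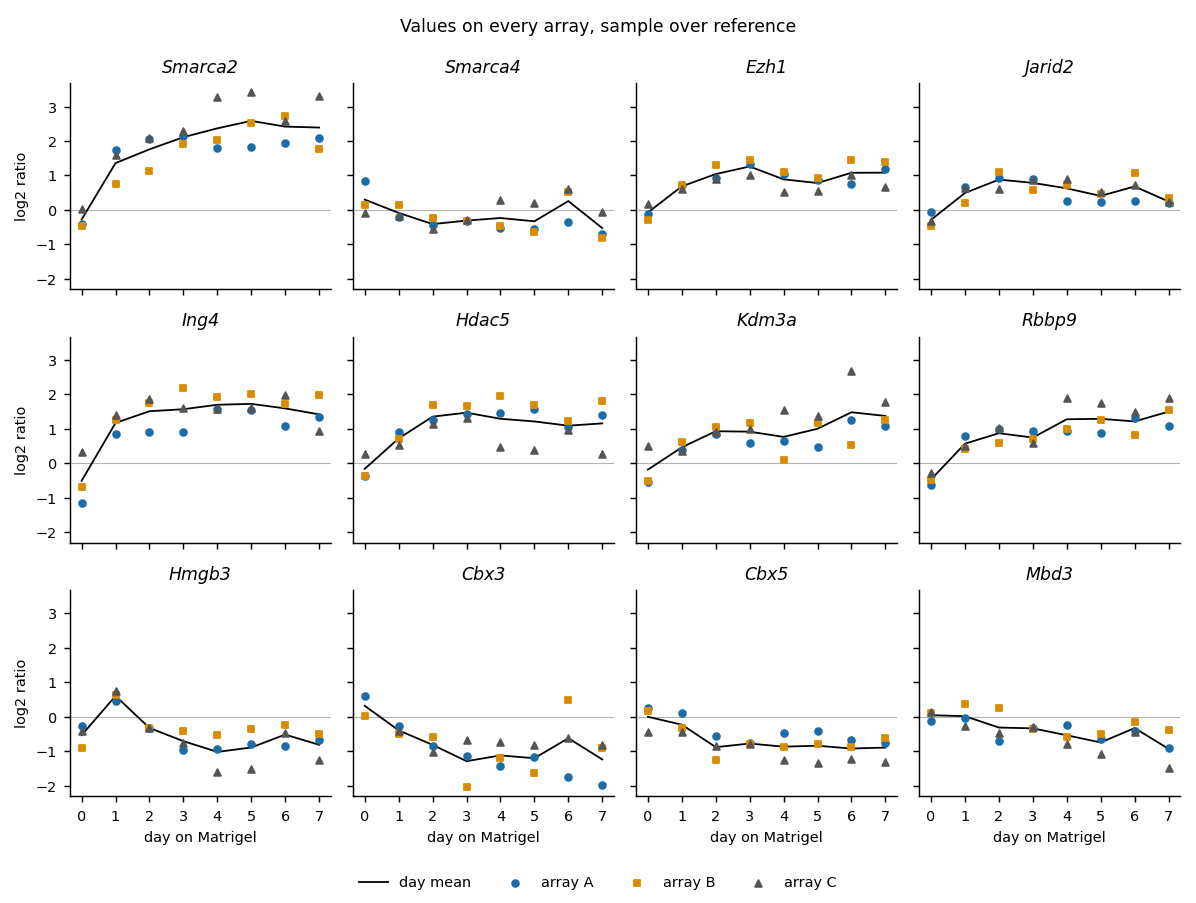
Log2 ratio of sample over reference (vertical axis) by day on Matrigel (horizontal axis) for 12 members, with a marker for each array (A, B, C) and a line through the day means. Smarca2, Ing4 and Rbbp9 leave the day 0 range by day 1 and stay above it, Hmgb3 peaks at day 1, and Cbx5 lies at -0.41 or below on the arrays of days 4 to 7.

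The CHD remodellers shared no direction. Most of these ATPases, though not Chd1l, carry chromodomains, which can bind histone tails. Chd3 and Chd4 are the alternative ATPases of NuRD, a complex that joins remodelling to histone deacetylation. Of 6 members, 0 passed at day 1 by limma (1 at an unadjusted p under 0.05) and 1, Chd3, at day 7. Chd3 stood at 0.16, 0.31 and 0.36 at day 0 and at -0.83, -0.30 and -1.38 at day 7, every day 7 array below every day 0 array. It fell by 1.11 ± 0.31 on the log2 scale (adjusted p = 0.0127, limma, n = 3 arrays a day). The fall was no longer called without day 7 array C (-0.84) or under turned day 0 signs (-0.56, adjusted p = 0.278, limma).

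Chd4 rose on days 2 and 3 and passed on no other day. It stood at -0.58, -0.11 and -0.12 at day 0 and at 0.25, 0.71 and 0.31 at day 3, with changes of 0.59 ± 0.20 at day 2 and 0.69 ± 0.20 at day 3 (adjusted p = 0.0461 and 0.0162, limma). At day 7 its change was 0.18 ± 0.20. Chd4 minus Chd3 within arrays was -0.74, -0.42 and -0.49 at day 0 and 0.82, 0.34 and 1.08 at day 7. Chd1, a remodeller of transcribed genes, stood at -0.50 at day 7, Chd8 at 0.25, Chd9 at -0.83 with a standard error of 0.58, and Chd1l, a remodeller of DNA repair, at 0.05, and none of these passed on any day.

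Of the histone deacetylases and Sin3 corepressors, which remove acetyl marks and so go with gene silencing, Hdac5 and Hdac1 rose. Of 10 members, 0 passed at day 1 by limma (2 at an unadjusted p under 0.05) and 2 at day 7, both higher, with a group median of 0.35. Hdac5, a class II enzyme that shuttles between nucleus and cytoplasm, stood at -0.37, -0.37 and 0.26 at day 0 and at 1.41, 1.81 and 0.26 at day 7. All arrays of days 1 to 7 lay above all day 0 arrays, but day 7 array C by less than the rounding shown. Hdac5 rose on days 2 to 7, by 1.52 ± 0.39 at day 2, 1.63 ± 0.39 at day 3 and 1.32 ± 0.39 at day 7 (adjusted p = 0.0108, 0.00524 and 0.0159, limma). On the C arrays of days 4 to 7 it lay below arrays A and B each day, and without them the day 7 change was 1.77 (adjusted p = 8.23e-05, limma). The call was lost without day 0 array A or B or day 7 array A or B, and no leave-out gave a change below 0.99.

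Hdac1, a class I enzyme of the Sin3 and NuRD complexes, stood at -0.91, -1.11 and 0.00 at day 0 and at 0.43, 0.65 and 0.00 at day 7. Day 0 array C lay close to day 7 array C, and arrays A and B of the days lay far apart. Hdac1 rose by 1.00 ± 0.34 at day 5 and by 1.03 ± 0.34 at day 7 (adjusted p = 0.0388 and 0.0283, limma). Turning the sign of the day 0 arrays reversed the day 7 change, to -0.32 (adjusted p = 0.608, limma), and leaving out array A or B of either day ended the call (0.82 to 1.37 over all 6 leave-outs). The day 7 call was also lost against the reference channel and when only the compared days were fitted. Its close relative Hdac2 stood at 0.71 ± 0.34 at day 7 (adjusted p = 0.117, limma). At day 7 Hdac3 stood at 0.08, the class II enzymes Hdac7 and Hdac10 at -0.66 and -0.29, and Hdac11 at 0.66. The scaffolds Sin3a and Sin3b stood at 0.17 and 0.53, and Rbbp4, a histone chaperone of several of these complexes, at -0.16. None of these 8 passed on any day.

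Of the ING readers, which bring acetyltransferases or deacetylases to methylated histone H3, Ing4 rose and Ing5 did not pass. Ing4 stood at -1.15, -0.70 and 0.32 on the day 0 arrays, at 0.86, 1.25 and 1.40 on day 1 and at 1.35, 1.98 and 0.93 on day 7. The lowest of the 21 later arrays, at 0.86, lay above the highest day 0 array. Ing4 rose by 1.68 ± 0.38 at day 1 (adjusted p = 0.00812, limma, n = 3 arrays a day), by 2.24 ± 0.38 at day 5 and by 1.93 ± 0.38 at day 7 (adjusted p = 0.00107, limma). The day 7 call held with each of the 6 arrays left out (1.61 to 2.35), and was lost among the settings tried only under turned day 0 signs (0.91, adjusted p = 0.127, limma). One of its 2 features gave a day 7 change. Ing5 stood at -0.50 at day 1 and 0.25 at day 7.

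Among the demethylases and JmjC proteins, Kdm3a and Kdm7a were up at day 7. These enzymes take methyl groups off histone lysines, Kdm1a and Kdm1b with a flavin and the JmjC family with iron and oxoglutarate. Of 10 members, 0 passed at day 1 by limma (1 at an unadjusted p under 0.05) and 2 at day 7, Kdm3a and Kdm7a, with a group median of 0.46. Kdm3a, which removes a silencing mark from histone H3 and is known to be induced by low oxygen, stood at -0.54, -0.50 and 0.49 at day 0 and at 1.09, 1.26 and 1.78 at day 7. The day 7 arrays lay above all day 0 arrays, with array C highest on both days. It rose by 1.67 ± 0.43 at day 6 and 1.56 ± 0.43 at day 7 (adjusted p = 0.0078 and 0.011, limma). Without the late C arrays the day 7 change was 1.36 (adjusted p = 0.00418, limma), and under turned day 0 signs it was 1.19 (adjusted p = 0.0755, limma). Leaving out day 0 array A, day 0 array B or day 7 array C also ended the call, at changes of 1.36 to 1.90 over the 6 arrays left out.

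Kdm7a rose on days 2, 5 and 7, by 0.75, 1.06 and 0.83 (adjusted p = 0.0499, 0.00622 and 0.0219, limma), and its 4 features with a day 7 value ranged from 0.01 to 1.46. Its day 7 call was lost without day 0 array A or B or day 7 array B or C (0.77 to 0.90 over all 6 leave-outs). Kdm4b rose on days 2, 3 and 5, by 0.60, 0.85 and 0.57, and stood at 0.35 at day 7. Both enzymes act on silencing marks of histone H3. Kdm5b and Kdm5c, which remove an activating mark, stood at 0.31 and 0.70 at day 7, and Kdm1a and Kdm1b at 0.44 and 0.47. Jmjd1c stood at 0.74 (adjusted p = 0.0592, limma), with features of opposite sign at -0.34 and 1.87, while Jmjd4 and Jmjd6, hydroxylases of the JmjC family, stood at -0.46 and -0.09. None of these 7 genes passed on any day.

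**Figure D3:**
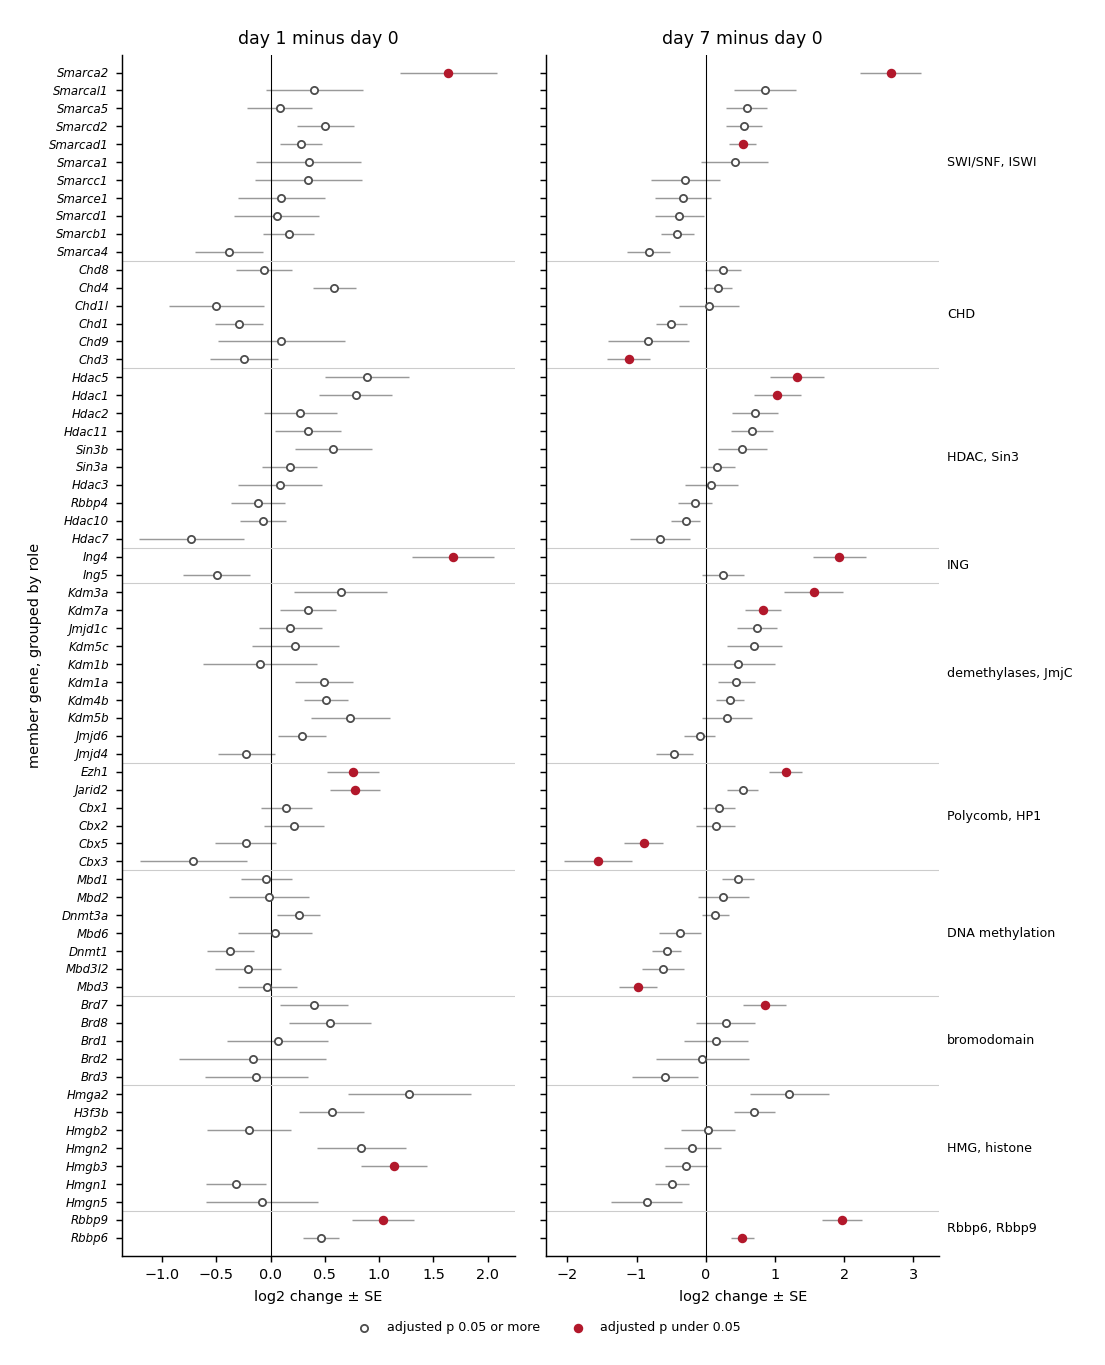
Log2 change ± SE from day 0 (horizontal axes, on different scales) for the 66 members (vertical axis, grouped by role) at day 1 (left) and day 7 (right), with filled points for adjusted p under 0.05. At day 1 the 6 filled points lie right of 0, from 0.76 to 1.68, and at day 7 there are 11 to the right, up to 2.67, and 4 to the left, down to -1.56.

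In the Polycomb and heterochromatin group, the Polycomb genes Ezh1 and Jarid2 rose from day 1, and the heterochromatin genes Cbx3 and Cbx5 were lower at day 7. Polycomb repressive complex 2 methylates histone H3 to silence genes. Ezh1 is one of its alternative catalytic subunits, the one known to prevail in cells that no longer divide, and Jarid2 is an accessory subunit. Ezh1 stood at -0.11, -0.30 and 0.18 at day 0, at 0.73, 0.72 and 0.60 at day 1 and at 1.18, 1.40 and 0.66 at day 7. All 21 later arrays, from 0.51 to 1.46, lay above the day 0 arrays. Ezh1 rose by 0.76 ± 0.24 at day 1, 1.34 ± 0.24 at day 3 and 1.16 ± 0.24 at day 7 (adjusted p = 0.0461, 0.000593 and 0.00161, limma). The day 7 call held in all 12 settings and all 6 leave-outs (1.00 to 1.37), whereas the day 1 call held in 1 of 6 leave-outs. Ezh1 was not among the 4 largest changes of a day, and its arrays and those of Jarid2, Smarca4, Hdac5, Hdac1, Chd4, Dnmt1, Brd2, Hmgn2 and Hmga2 are given as choices made after their values were seen.

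Jarid2 stood at -0.06, -0.47 and -0.33 at day 0, at 0.93, 1.09 and 0.61 at day 2 and at 0.19, 0.33 and 0.22 at day 7, and its later arrays lay above all day 0 arrays. It rose on days 1 to 6, by 0.78 ± 0.23 at day 1, 1.17 ± 0.23 at day 2 and 0.97 ± 0.23 at day 6. At day 7 the change was 0.53 ± 0.23 (adjusted p = 0.0863, limma). One of its 4 features with a day 7 value was opposite in sign, at -0.05. Under turned day 0 signs, the day 1 change of Jarid2 was 0.20.

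Cbx1, Cbx3 and Cbx5 encode the HP1 proteins beta, gamma and alpha, which bind methylated histone H3 in heterochromatin. Cbx5 stood at 0.26, 0.17 and -0.44 at day 0, at 0.10, -0.34 and -0.45 at day 1 and at -0.76, -0.62 and -1.31 at day 7. The day 1 arrays overlapped those of day 0, and the day 7 arrays lay below them. Cbx5 fell by 0.89 ± 0.28 on the log2 scale at day 7 (adjusted p = 0.0238, limma, n = 3 arrays a day) after -0.23 ± 0.28 at day 1, and it was past the threshold on days 2 and 4 to 7. Its 3 features with a day 7 value agreed, at -0.92 to -0.88, and turning the day 0 signs left it at -0.90 (adjusted p = 0.0448, limma). At day 1 the same 3 features were lower, at -0.72, -0.50 and -0.38, all beyond the gene value of -0.23. Another feature, with values on 3 arrays only, entered the mean on those arrays, so the gene value at day 1 depends on it. Leaving out day 0 array A, day 0 array B or day 7 array C ended the call, with changes from -1.11 to -0.69 over the 6 leave-outs.

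Cbx3 stood at 0.61 and 0.02 on day 0 arrays A and B, with no value on array C, at -0.28, -0.50 and -0.40 at day 1 and at -1.98, -0.91 and -0.83 at day 7. All day 1 and day 7 arrays lay below both day 0 arrays. The day 1 change was -0.71 ± 0.49 (adjusted p = 0.410, limma). Cbx3 fell by 1.56 ± 0.49 on the log2 scale at day 7 (adjusted p = 0.0244, limma, n = 2 and 3 arrays), and it passed on days 3, 4 and 5 too. Without day 0 array A, day 0 array B or day 7 array A the fall was not called (-1.85 to -1.19 over the leave-outs), nor was it under turned day 0 signs, at -0.92 (adjusted p = 0.249, limma). Cbx1 stood at 0.19 ± 0.23 at day 7 and Cbx2, a Polycomb protein, at 0.14, and neither passed on any day. Within arrays, Cbx1 minus Cbx5 was -0.37, -0.32 and 0.14 at day 0 and 0.46, 1.06 and 1.18 at day 7.

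Among the 7 genes of DNA methylation, 0 passed at day 1 by limma (0 also at an unadjusted p under 0.05) and 1, Mbd3, at day 7. Methyltransferases set the mark, Dnmt1 on newly copied strands and Dnmt3a on unmarked DNA, and MBD proteins are named for a domain that binds it. Mbd3, a NuRD subunit, stood at -0.11, 0.10 and 0.15 at day 0 and at -0.91, -0.39 and -1.50 at day 7, every day 7 array below every day 0 array. It fell by 0.98 ± 0.27 on the log2 scale at day 7 (adjusted p = 0.0126, limma, n = 3 arrays a day), and stood at -0.03 at day 1. The fall stayed past the threshold with the day 0 signs turned (-0.89, adjusted p = 0.0415, limma). It was lost without the late C arrays (-0.69, adjusted p = 0.0506, limma), and without day 7 array C.

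Dnmt1 stood at -0.07, -0.19 and -0.05 at day 0 and at -0.82, -0.72 and -0.90 at day 3, with no overlap. It fell by 0.71 ± 0.21 on the log2 scale at day 3 (adjusted p = 0.0224, limma), by 0.75 ± 0.24 at day 4 and stood at -0.57 ± 0.21 at day 7 (adjusted p = 0.0563, limma). Mbd3l2, an Mbd3-like gene, fell on days 4 and 5, by 0.87 and 1.08 on the log2 scale. Dnmt3a stood at 0.14 at day 7, Mbd1 at 0.46, Mbd2, the methyl-binding partner of NuRD, at 0.25, and Mbd6 at -0.37, and these passed on no day.

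Of 5 bromodomain proteins, which read acetylated histones, 0 passed at day 1 by limma (0 at an unadjusted p under 0.05) and 1, Brd7, at day 7. Brd7, a subunit of a SWI/SNF form, rose by 0.85 ± 0.31 (adjusted p = 0.0479, limma), a call lost in 3 of 12 settings and without day 0 array A or B or day 7 array A or C (0.68 to 1.04 over all 6 leave-outs). Brd2, a BET protein of transcribing chromatin, stood at 0.28, 0.26 and 0.12 at day 0 and at 1.03, 0.75 and -1.26 at day 7. Array C of day 7 lay below all day 0 arrays and arrays A and B above them. Its day 7 change of -0.05 ± 0.68 became 0.67 once the late C arrays were left out. Brd1, of histone acetyltransferase complexes, stood at 0.14, the BET protein Brd3 at -0.59, and Brd8, of an acetyltransferase complex, at 0.29, and like Brd2 they passed on no day. The 3 features of Brd3 stood at -0.36 to -0.21, so its gene value lay outside all of them.

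Among the high mobility group genes, Hmgb3 rose for 1 day. Of these 6 genes and H3f3b, 1 passed at day 1 and 0 at day 7 by limma (2 at an unadjusted p under 0.05). HMGB proteins bend DNA through HMG boxes, HMGN proteins bind nucleosomes and loosen chromatin, and HMGA proteins bind AT-rich DNA. Hmgb3, known from stem and progenitor cells, stood at -0.28, -0.90 and -0.42 at day 0 and at 0.45, 0.62 and 0.75 at day 1. On day 2 it was back at -0.33, -0.33 and -0.32, and on day 7 at -0.68, -0.49 and -1.27. The day 1 arrays were the highest of the 24, the only ones above 0. Hmgb3 rose by 1.14 ± 0.30 at day 1 (adjusted p = 0.0197, limma, n = 3 arrays a day), and stood at 0.21 at day 2 and -0.28 ± 0.30 at day 7 (adjusted p = 0.514, limma).

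The drop of Hmgb3 from day 1 to day 7, -1.42 ± 0.30 (adjusted p = 0.0132, limma), holds no day 0 array. It was the one member called in that comparison, which called 2.92 percent of all units, 1.38 percent of them in the lower direction. Both Hmgb3 features were higher at day 1, by 0.74 and 1.35, and stood at -0.19 and -0.37 at day 7. Of 29 cell cycle markers, 0 rose and 3 fell at day 1, with a median of -0.38, and their part in the values of Hmgb3 was not tested. The day 1 call of Hmgb3 held in 8 of 12 settings. It was lost with only day 0 array C turned, against the reference channel, and with the feature with the most values used alone. Under turned day 0 signs it was lost too, at a change of 0.07 (adjusted p = 0.935, limma).

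Hmgn2 had a similar outline without passing. It stood at -0.78, -0.61 and 0.03 at day 0, at 0.36, 0.55 and 0.25 at day 1 and at -0.30, -0.99 and -0.64 at day 7. Its day 1 arrays lay above the day 0 arrays, and its day 7 arrays overlapped them. The changes were 0.84 ± 0.41 at day 1 (adjusted p = 0.218, limma) and -0.19 ± 0.41 at day 7.

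Hmga2, a fetal and tumour gene, stood at 0.01, -0.66 and -0.90 at day 0, at 0.31, 1.56 and 0.42 at day 1 and at 0.31, 1.58 and 0.20 at day 7. Arrays of both days lay above all day 0 arrays, with array B far above A and C. The changes of 1.28 ± 0.57 and 1.21 ± 0.57 did not pass (adjusted p = 0.164 and 0.113, limma). Hmgb2 stood at -0.20 ± 0.39 at day 1 and 0.04 ± 0.39 at day 7, with its 2 features at -0.98 and 0.38.

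At days 1 and 7 Hmgn1 stood at -0.32 ± 0.28 and -0.49 ± 0.25, with 20 of 20 later arrays below the day 0 arrays. Hmgn5 stood at -0.08 ± 0.52 and -0.86 ± 0.52, and H3f3b, which encodes a variant of histone H3 laid down outside replication, at 0.56 ± 0.30 and 0.70 ± 0.30 (adjusted p = 0.263 and 0.0853, limma).

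Rbbp9 and Rbbp6 carry the symbol of RB-binding proteins, but Rbbp9 encodes a serine hydrolase and Rbbp6 a ubiquitin ligase that acts in RNA processing. Rbbp9 stood at -0.64, -0.48 and -0.28 at day 0, at 0.80, 0.41 and 0.50 at day 1 and at 1.08, 1.54 and 1.89 at day 7. The groups did not overlap, and each day 7 array lay above each day 1 array. Rbbp9 rose by 1.04 ± 0.28 at day 1 (adjusted p = 0.0229, limma, n = 3 arrays a day) and by 1.97 ± 0.28 at day 7 (adjusted p = 6.59e-05, limma). The day 7 call held in all 12 settings and 6 leave-outs (1.78 to 2.18), but under turned day 0 signs the change was 1.03 (adjusted p = 0.0219, limma). The day 1 change was 0.10 under that turn (adjusted p = 0.897, limma). Rbbp6 rose by 0.53 ± 0.16 at day 7 (adjusted p = 0.0216, limma), and its 3 features with a day 7 value stood at -0.33, 0.22 and 1.81, so that 1 feature carried the mean. That call was lost under turned day 0 signs, at 0.15 (adjusted p = 0.622, limma), and without array B or C of day 0 or of day 7 (0.47 to 0.59 over all 6 leave-outs).

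The day 1 calls depended on single arrays. Leaving out day 0 array A left 1 of the 6, and leaving out day 0 array B left 0, with 11 members at an unadjusted p under 0.05. Of all units, 3.81 and 3.1 percent then passed. Without day 1 array A, B or C, 2, 4 and 1 members passed, beside 5.09, 5.86 and 4.31 percent of all units. Ing4 kept its day 1 call in 4 of the 6 leave-outs and lost it without day 0 array A or B (1.36 to 2.10). Hmgb3 lost it without day 0 array B or day 1 array B or C (0.96 to 1.27), and Smarca2 and Rbbp9 without day 0 array A or B or day 1 array A or C (1.45 to 1.94 and 0.92 to 1.13). Jarid2 kept it only without day 1 array B (0.69 to 0.93), and Ezh1 only without day 0 array C (0.65 to 0.89). Each range covers all 6 leave-outs, and every change in them was above 0. Under a turned sign of every day 0 array, 0 passed at day 1 by limma (9 at an unadjusted p under 0.05), beside 4.84 percent of all units. Of the 15 calls at day 7, 6 stayed under that turn: Ezh1, Rbbp9, Smarca2, Kdm7a, Cbx5 and Mbd3. Without day 0 array A the day 7 count was 7, without day 0 array B 6, and without day 7 array C 9. In these fits 17.6, 15.2 and 18.9 percent of all units passed. Arrays that did not overlap were more common: at day 1, 24 members lay wholly above day 0 and 6 wholly below, where 23.5 and 19.8 percent of all units did. At day 7 they were 21 and 10, where 21.8 and 19.5 percent did.

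Few of these genes passed between the later and the earlier days. Between days 5 to 7 and days 1 to 3, 2 of 66 members passed, 1 higher and 1 lower, where 7.74 percent of all units did, 3.51 percent higher and 4.23 percent lower. At an unadjusted p under 0.05 there were 15, 4 higher and 11 lower, with no share of all units computed at that threshold. With the array letter as a block 8 members passed, 2 higher and 6 lower, beside 14.5 percent of all units. Rbbp9 ran from 0.41 to 1.02 with a median of 0.71 on the 9 arrays of days 1 to 3, and from 0.82 to 1.89 with a median of 1.33 on those of days 5 to 7. The ranges overlapped in part, and the change was 0.61 ± 0.16 (adjusted p = 0.0298, limma). Hmgb3 ran from -0.98 to 0.75 with a median of -0.33 early, and from -1.51 to -0.23 with a median of -0.68 late. Its change was -0.60 ± 0.17 (adjusted p = 0.0416, limma), and the ranges overlapped widely. Without the late C arrays neither passed, at 0.42 (adjusted p = 0.0584, limma) and -0.43 (adjusted p = 0.0702, limma). With arrays scaled to one spread, 0 members passed higher and 2 lower, beside 7.59 percent of all units. Leaving out day 5 array C or day 7 array C gave 0 calls with 12 and 10 members at an unadjusted p under 0.05. Of all units 4.19 and 4.06 percent then passed. Without day 1 array B, day 1 array C, day 2 array B or day 3 array C, limma also gave 0. The members at an unadjusted p under 0.05 were 12, 12, 10 and 12, and 4.85, 4.42, 4.35 and 4.17 percent of all units passed. Without day 5 array A or day 7 array B 6 members passed, beside 8.62 and 11.7 percent of all units.

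The C arrays of days 4 to 7 took their own course for some members. Array C lay above arrays A and B on each of these days for 13 of 61 members, and below them for 12, where 17.7 and 17.8 percent of all units did. These are the members with array C and at least 1 of arrays A and B on each day, so that some rest on a single array beside C. Of the 53 members with all 12 values, array C lay above for 9 and below for 11, where 16.4 and 18 percent of all such units did. Brd2 lay furthest below, with array C minus the mean of A and B at -2.10, -2.34, -2.32 and -2.15 on the 4 days. Brd3, Brd1, Hmgn5, Smarce1, Hdac7 and Hdac5 were also below, and Smarca1, Kdm1b, Smarcal1 and Chd1l above by 1.20 to 1.55 on average, Smarca1 and Chd1l with A or B missing on some days. Smarca2 was mixed, with array C far above on days 4, 5 and 7. These genes were picked after their values were seen. What sets the C arrays apart was not tested.

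**Figure D4:**
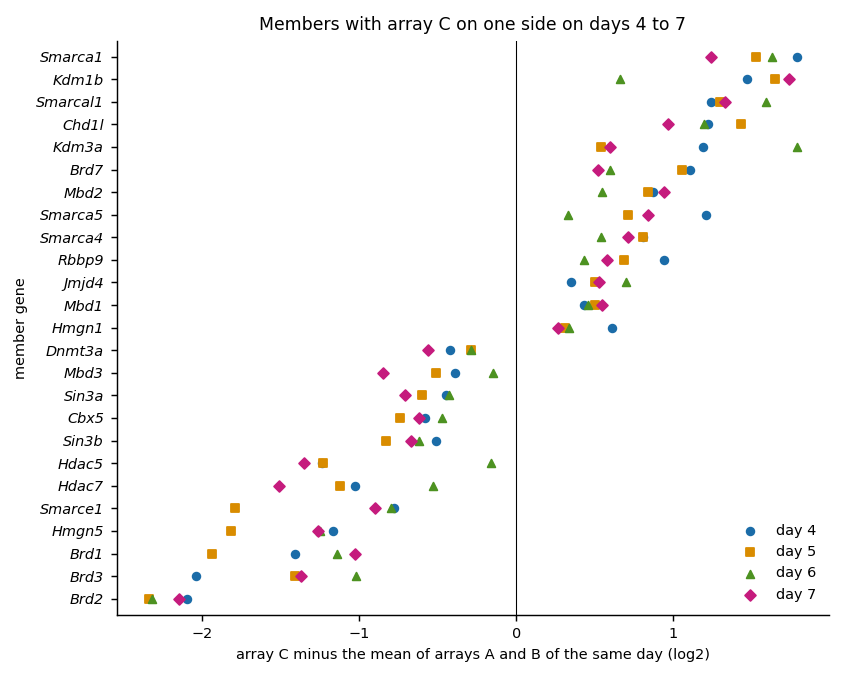
Array C minus the mean of arrays A and B of the same day (horizontal axis, log2) for the 25 members (vertical axis) in which array C lay on the same side on days 4, 5, 6 and 7, with a marker per day and a missing A or B left out of the mean. Brd2 lies near -2 on all 4 days, and Smarca1 lies between 1.24 and 1.79.

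Chromatin genes outside the symbol rule were counted at day 1 and at day 7. From 9 lists of other Polycomb and Trithorax genes, histone methyltransferases and acetyltransferases, remodelling subunits, corepressors, histone chaperones, DNA methylation factors, chromosome structure genes and linker or other histones, 133 of 255 were tested. At day 1, 2 passed, Arid4a at -1.04 ± 0.32 and the chaperone gene Daxx at -0.84 ± 0.21, both lower, and the median was 0.04, where 10.9 percent of all units passed. At day 7, 13 rose and 20 fell, with a median of -0.14, where 14.6 percent of all units rose and 13 percent fell. Apart from Actb, the largest falls were Banf1, of the nuclear envelope, at -2.01, Ruvbl2, an ATPase of remodelling complexes, at -1.97, Lmna, the lamin A gene, at -1.78, and Mcm2, of the replicative helicase and also a cell cycle marker, at -1.73. The largest rises were Tbl1xr1, of the NCoR corepressor, at 1.18, the Polycomb genes Phc3 and Bmi1 at 1.09 and 1.00, Uhrf2 at 1.05 and Prmt2, an arginine methyltransferase, at 0.94. Of the 16 other Polycomb and Trithorax genes tested, 4 rose and 1 fell at day 7, with a median of 0.38, and of 27 chromosome structure genes 1 rose and 7 fell, with a median of -0.30. Of 16 histone chaperones 1 rose and 4 fell, of 17 histone methyltransferases 2 and 2, of 23 remodelling subunits 2 and 3, and of 16 corepressors 1 and 2. Of 12 histone acetyltransferases 1 rose and 0 fell, of 4 DNA methylation factors 1 and 0, and of the 2 tested histones, H2az1 and Macroh2a2, 0 and 1. Between late and early days 1 of the 133 rose and 6 fell.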

How the data were processed

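RNA of 24 samples was measured on arrays of 2 colours. The authors deposited a table of 24157 features by 24 columns of log2 ratios, where base 2 and the direction, Cy5 over Cy3, are a likely reading; scale, centring, background correction and the reason for empty cells are not stated there or in the labels. Column medians as deposited were, for A, B and C in turn, 0.0118, -0.0052 and 0.0005 on day 0, 0.01, 0.0094 and 0.005 on day 1, 0.0027, -0.0025 and -0.0022 on day 2, -0.0034, 0.0083 and 0.0027 on day 3, 0.0073, -0.0086 and 0.0065 on day 4, -0.0044, -0.0121 and 0.0171 on day 5, 0.0295, 0.0151 and 0.0094 on day 6 and 0.0137, -0.0253 and 0.0075 on day 7. The dye direction is from the labels' protocols, and no label records a dye swap.

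Features were named through the platform annotation: 13319 had 1 symbol, 589 had several and 10249 were unlisted, and the last 2 kinds stayed unnamed. Symbols were brought up to date for 13290 features by Entrez identifier (RefSeq, GRCm38.p6), and 29 kept theirs. The arrays carry no named feature for Hmgb1 or Hmga1 under this naming. Each array was centred on its median, and the features of a gene with a value on that array were averaged. Where features lack values on some arrays, the set averaged differs between arrays. The change of a gene can then lie outside those of its features. Units with values on at least 2 arrays of each of the 8 days, 10639 in all, were fitted as 8 day means with limma 3.58.1 in R 4.3.3, 2-sided, with Benjamini-Hochberg adjustment over all units at 0.05. Genes shown array by array were the up to 4 largest rises and falls past the threshold at day 1, at day 7 and between late and early days; all high mobility group and histone members were named whatever their p, and each other member in its role group. From other chromatin lists, the up to 5 largest rises and falls at days 1 and 7 were named. Members and lists were chosen with earlier results of these data known.

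The fit was checked on simulated data of the contrast of days 7 and 0 (10639 units, of which 200 changed). It recovered 33 percent of changes of 1 and 87 percent of changes of 2 (log2), with 7 false calls, 5.5 percent of calls. The simulated noise was independent between arrays, with the same spread on every array for a given unit. The real arrays had SDs of 0.332 to 1.064, and the late C arrays correlated with each other at 0.808 to 0.967. The simulated shares therefore cannot be read as those of the real arrays. With 3 arrays a day, their number limits the precision. Alternatives covered centring, scaling, groups fitted, features, missing values, the sign of the day 0 arrays, the reference channel as baseline, the late C arrays, the array letter as a block, symbols, and each array left out.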

Additional observations from a re-analysis of the deposited data

Results flagged for a closer look

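The change of Hmgb3 differed between day 7 and day 1, by -1.42 on the log2 scale (standard error 0.30, adjusted p = 0.0132, limma, 3 arrays a day). It was singled out because the same gene stood above day 0 on all 3 day 1 arrays and within its range or below on day 7. This was the only one of the 66 members for which that difference passed. The day 0 arrays cancel in this difference, so their sign does not enter it.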

How the results depend on the processing

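Counts of members called at days 1 to 7, between late and early days, and over the whole course (main: 6, 11, 12, 11, 14, 10, 15, 2 and 6) moved by more than 1.5 times as follows. Arrays scaled to one spread gave 15 at day 1 and 21 at day 2, beside 30.6 and 34.0 percent of all units. Fitting only the compared days gave 11, 17, 23, 5, 5, 5 and 7 for days 1 to 7. Of all units, 24.2, 31.3 and 35.9 percent then passed at days 1, 2 and 3. The share was 11.4, 13.6 and 15.1 percent at days 4, 6 and 7, and at day 5 1117 of 10639 units passed. Under a turned sign of every day 0 array there were 0 at day 1 by limma, with 9 at an unadjusted p under 0.05. At days 2, 5 and 7 there were 7, 8 and 8. Beside these counts stood 4.84, 10.4, 12.6 and 11.6 percent of all units at days 1, 2, 5 and 7. The day 7 change of Hdac1 turned to -0.32. Against the reference channel the counts were 18, 25, 21, 20 and 26 at days 2, 3, 4, 6 and 7. On those days 25.8, 32.4, 32.2, 36.4 and 35.1 percent of all units passed. Leaving out the late C arrays (days 4 to 7) gave 17 at day 2 and 15 over the whole course, beside 31.1 and 29.8 percent of all units. Brd2, not called in the main fit of all arrays, then stood at 0.67 at day 7 and 0.58 between late and early days. Letters did not pair the arrays of later days with those of day 0. Deviations of same-letter arrays from their day means correlated with day 0 at -0.568 to 0.478, over 0.1 in 4 of 21 pairs. Of these 21 arrays, 2 correlated best with the day 0 array of their own letter. That check does not cover pairs among later days, where the C arrays of days 4 to 7 correlated with each other at 0.808 to 0.967. With the array letter as a replicate block the counts were 17 at day 4, 8 between late and early days and 12 over the course. The shares of all units were 27.9, 14.5 and 24.2 percent. Leaving out 1 array gave 0 to 7, 5 to 12, 8 to 16, 6 to 12, 6 to 14, 7 to 15 and 6 to 17 for days 1 to 7. It gave 0 to 6 between late and early days and 4 to 9 over the course. The share of all units then ran from 3.1 to 14.7 percent at day 1. It was 7.98 to 20.4 percent at day 2, 11.7 to 26.2 at day 3 and 11.5 to 24.3 at day 4. At days 5, 6 and 7 it was 11.5 to 24.7, 14.4 to 26.9 and 15.2 to 29.1 percent. Between late and early days 3.79 to 11.7 percent passed, and over the course 7.08 to 19.6 percent. The cause was not tested, apart from the fewer arrays. Over single members, 3884 values under an alternative stayed on their side of the threshold, 124 fell below it and 90 passed it. A further 3 reversed direction with a call in at least 1 of the fits compared. A change of sign in a member called in neither fit is counted among the 3884. Signal over background is not in the deposited table, so it could not be used as a limit.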

Other observations

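Other pairs of related members, picked after their values were seen, are given as the difference within each array, without a test. Mbd2 minus Mbd3, alternative MBD-family subunits of NuRD, was -0.78, -0.36 and 0.35 at day 0 and 0.44, 0.31 and 2.17 at day 7, where array C lay far above A and B. Cbx1 minus Cbx3 was -0.72 and -0.17 on the 2 day 0 arrays with values and 1.68, 1.35 and 0.70 at day 7. Hdac1 minus Hdac2 was -0.53, -0.71 and 0.10 at day 0 and -0.05, 0.65 and -0.76 at day 7, with the days overlapping. Hmgb3 minus Hmgb2 started from 0.30, 0.31 and -0.50 at day 0. It was 1.26, 1.43 and 1.43 on day 1, and by day 7 it read 0.28, -0.23 and -0.90, so that day 1 stood above both other days on every array.

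For some members, features of the same gene disagreed at day 7. Chd9 had a feature at -2.73 and another at 0.64, and Dnmt3a ranged from -0.43 to 0.74. Where such a gene is given by its mean, no single feature stands for it.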
